A study of Mus musculus with 12 samples.

Results

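The miR-17-92 cluster and its paralog miR-106b-25 were followed through 9 mature miRNAs in small RNA libraries of mouse extracellular vesicles, the membrane particles that cells release. The members were taken by name: mmu-miR-17-5p, mmu-miR-18a-5p, mmu-miR-19a-3p, mmu-miR-20a-5p, mmu-miR-19b-3p and mmu-miR-92a-3p from miR-17-92, and mmu-miR-106b-5p, mmu-miR-93-5p and mmu-miR-25-3p from miR-106b-25. The mouse prefix mmu- is left out below. They are 9 of 1978 annotated mouse miRNAs in the table and 9 of the 501 that had a count in some library. The vesicles came from bone marrow mesenchymal stem cells, stromal cells able to form bone, cartilage and fat, of C57BL/6 mice kept specific-pathogen-free.

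The libraries formed the groups PLL, NY, aFM and DZ, with 3 libraries each, called replicates A, B and C. The study stimulated the cells with hydatid antigens, and its design text names 3 preparations, ESPs, HCF and pLL, given at 2 µg/ml for 48 h. PLL carries the name of pLL; the labels do not explain NY, aFM and DZ, describe all 12 libraries as antigen-treated and name no unstimulated group. The 3 preparations do not account for 4 groups, and DZ served only as a common denominator. Ages, numbers of mice and numbers of cultures are not stated, so the p-values below rest on the spread between libraries, which may be technical.

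miR-17-92 is transcribed as a single precursor from which several hairpins are cut. It is a direct target of MYC and E2F factors, promotes proliferation and survival, and is needed for B cell and lung development. The miR-106b-25 cluster lies inside the gene of Mcm7, a DNA replication helicase subunit, and is made along with it in dividing cells. The members fall into families by their seed, the bases at positions 2 to 8 that pair with target messages. miR-92a is also abundant in red cells, platelets and blood plasma.

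All 9 members matched a RefSeq entry (build GRCm38.p6). The mature sequences are shown because members that share a seed can also share nearly all other bases, which bears on how reads were assigned. Capitals mark the seed. Those with the miR-17 seed were:
miR-17-5p: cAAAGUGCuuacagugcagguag
miR-20a-5p: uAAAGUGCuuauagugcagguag
miR-106b-5p: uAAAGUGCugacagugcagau
miR-93-5p: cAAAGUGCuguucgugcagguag
miR-18a-5p has a seed that differs from theirs by a base:
miR-18a-5p: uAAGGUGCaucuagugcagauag
The miR-19 pair were:
miR-19a-3p: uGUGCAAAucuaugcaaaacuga
miR-19b-3p: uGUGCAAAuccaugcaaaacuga
The pair with the miR-92 seed, which held nearly all counts, were:
miR-92a-3p: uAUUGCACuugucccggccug
miR-25-3p: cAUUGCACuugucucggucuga

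Counted from 1 at the 5′ end, miR-17-5p and miR-20a-5p differed by C1U and C12U, and miR-19a-3p and miR-19b-3p by U11C alone. miR-92a-3p and miR-25-3p differed by U1C, C14U and C18U over the 21 bases they could be compared on. Assignment of reads between such near-copies by the authors is uncertain for the sparse members, although no member had the same counts as another row in all libraries. miR-92a-3p is encoded at 2 loci with identical mature sequence, Mir92-1 at chr14:115044476-115044496 (plus strand) and Mir92-2 at chrX:52741854-52741874 (minus strand), and its reads cannot be assigned to either. The same holds for miR-19b-3p.

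On GRCm38 the 6 hairpins of miR-17-92 span 836 bases, chr14:115043671-115044506, plus strand. They overlap the annotated exon sequence of the noncoding host gene Mir17hg. The 3 hairpins of miR-106b-25 span 498 bases, chr5:138165321-138165818, minus strand, and lie in introns of both annotated Mcm7 transcripts examined. The related cluster miR-106a-363 lies on chromosome X (52741693 to 52742567, minus strand).

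Library totals ran from 68647 to 214303 counts, of which 17607 to 60436 were annotated miRNAs. Annotated miRNAs made up 29.2% to 60.7% of counts in PLL, 18.6% to 30.6% in NY, 10.7% to 19.9% in aFM and 10.3% to 21.6% in DZ. The remainder were predicted loci without a miRNA name. Levels below are counts per 1000000 annotated counts (CPM) with library sizes scaled by TMM, a trimmed-mean method. A count of 0 allows up to 3 counts, or 68.0 to 183 CPM depending on the library. Such limits and the binomial intervals below cover counting error only, as reads are not independent molecules. Markers of every cell type looked at had counts, erythroid and leukocyte ones (below) included, so their presence cannot check the labelled cell type. All 7 mesenchymal markers had counts, led by miR-21a-5p and miR-143-3p, while miR-145a-5p had 71 counts in 9 libraries. Their summed level was 147324 to 237097 CPM in PLL, 211242 to 230233 in NY, 152308 to 163798 in aFM and 194334 to 219755 in DZ. Markers of other tissues also had counts: the 3 neural markers, carried mostly by miR-9-5p, summed to 88096 to 126185 CPM in PLL, 9722 to 11086 in NY, 33229 to 39014 in aFM and 2243 to 3233 in DZ. The 2 endothelial markers summed to 1699 to 2318 CPM in PLL, 365 to 866 in NY, 4622 to 5123 in aFM and 494 to 1427 in DZ. The 6 epithelial markers summed to at most 2112 CPM in any library. The part of these in the member levels was not tested.

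Among 5398 counts of the 9 members, miR-92a-3p held 78.2%, miR-25-3p 18.6% and the other 7 together 3.19%. miR-92a-3p ranked 18 among annotated miRNAs by mean share (1.24% of annotated counts) and miR-25-3p ranked 42 (0.287%). miR-20a-5p, the next by share, ranked 159. These 2 leaders carry the same seed, so the AUUGCAC family supplied 5226 of the counts against 151 for the AAAGUGC family (4 members), 17 for the miR-19 pair and 4 for miR-18a-5p. Members from the same precursor were far apart in level: miR-92a-3p had 4221 counts and the other 5 members of miR-17-92 had 104 together. The X-linked locus may also supply miR-92a-3p, in a share not measured here.

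**Figure D1:**
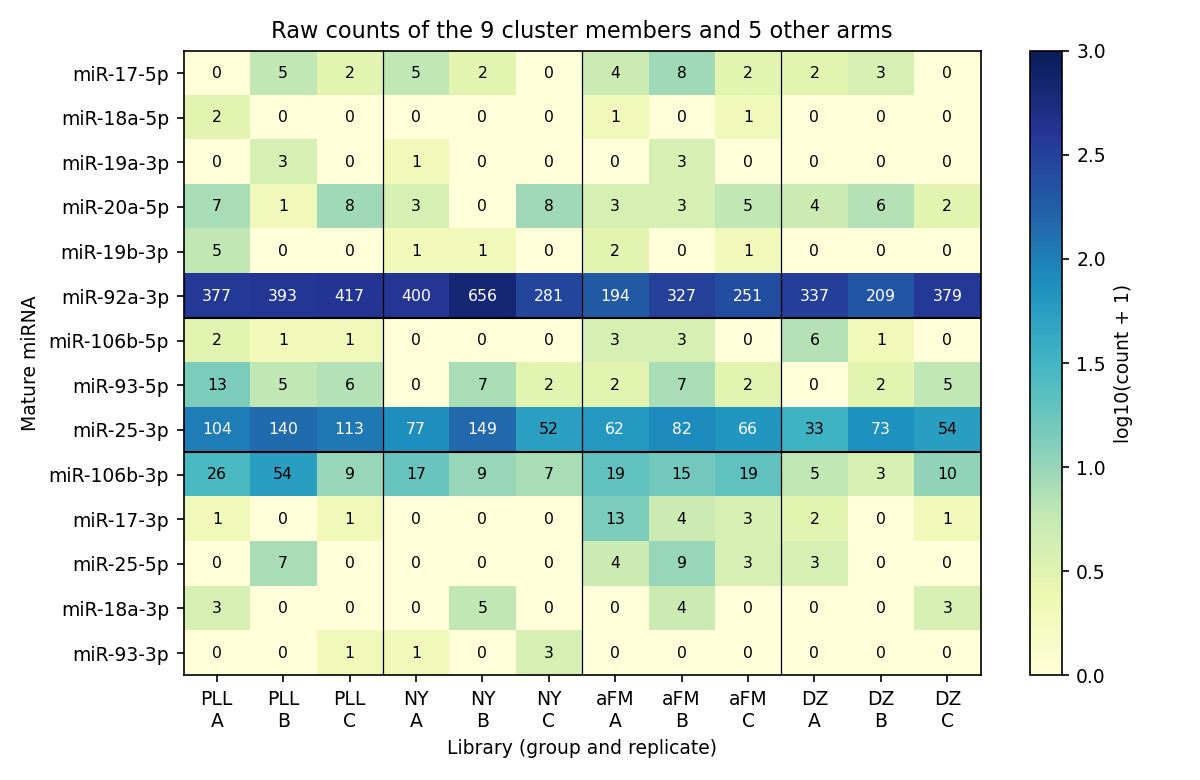
Raw counts of the 9 members (upper rows, miR-17-92 then miR-106b-25) and of 5 other arms of the same hairpins (lowest rows) in each of 12 libraries, with cell colour on a log10(count + 1) scale. miR-92a-3p (194 to 656 counts) and miR-25-3p (33 to 149) stand out in every library, and the other 7 members never exceed 13 counts.

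The first question was whether the summed level of the cluster miRNAs differed among the groups. The 9 members together reached 11556, 13733 and 17369 CPM in PLL replicates A, B and C and 16174, 25316 and 11419 CPM in NY. The sums were 11405, 15846 and 9908 CPM in aFM and 23301, 16781 and 16724 CPM in DZ. Libraries of aFM all lay below those of DZ, whereas every other pair of groups overlapped. Means were 14219 ± 2937 CPM in PLL, 17636 ± 7063 in NY, 12386 ± 3088 in aFM and 18935 ± 3781 in DZ (SD, n = 3). The sum is a description without a test, as the members were chosen with earlier results known. Beside it, 34.1% of the 132 tested miRNAs had non-overlapping libraries in aFM against DZ, 15.9% with aFM below, so a gap of this kind was common in that comparison.

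As a share of annotated counts, the sum was 1.44% ± 0.544 in PLL, 1.72% ± 0.560 in NY, 1.31% ± 0.282 in aFM and 1.84% ± 0.217 in DZ (SD, n = 3). The lowest share was 0.844% in PLL replicate A (exact 95% binomial interval 0.772% to 0.920%) and the highest 2.32% in NY replicate B (2.17% to 2.48%). Within NY the share was 1.21% (1.09% to 1.35%) in replicate C, so the intervals of replicates did not overlap. Over all rows of the table, predicted loci included, the sum was 0.587% ± 0.184 of counts in PLL, 0.429% ± 0.252 in NY, 0.200% ± 0.0655 in aFM and 0.314% ± 0.0879 in DZ. On that scale PLL was the highest group, and the aFM and DZ libraries overlapped (0.126% to 0.253% in aFM against 0.215% to 0.383% in DZ). Summed erythroid markers, miR-451a, miR-486a-5p and both miR-144 arms, were 46925 to 67410 CPM in PLL, 63556 to 129747 in NY, 48000 to 81352 in aFM and 61537 to 137180 in DZ. Their group means were higher in NY and DZ than in PLL and aFM, as those of the member sum were. The same held for the mesenchymal markers, with means of 220557 CPM in NY and 206788 in DZ against 179177 in PLL and 158286 in aFM. It did not hold for the leukocyte, endothelial, epithelial or neural markers. Summed leukocyte markers were 2334 to 3984 CPM in PLL, 2197 to 3665 in NY, 1843 to 2635 in aFM and 3269 to 3721 in DZ. Of the 4 erythroid markers miR-144-3p was at 0 in NY and miR-144-5p at 0 in DZ, and of the 5 leukocyte markers miR-142a-3p was at 0 in NY and in DZ. Their part was likewise not tested.

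**Figure D2:**
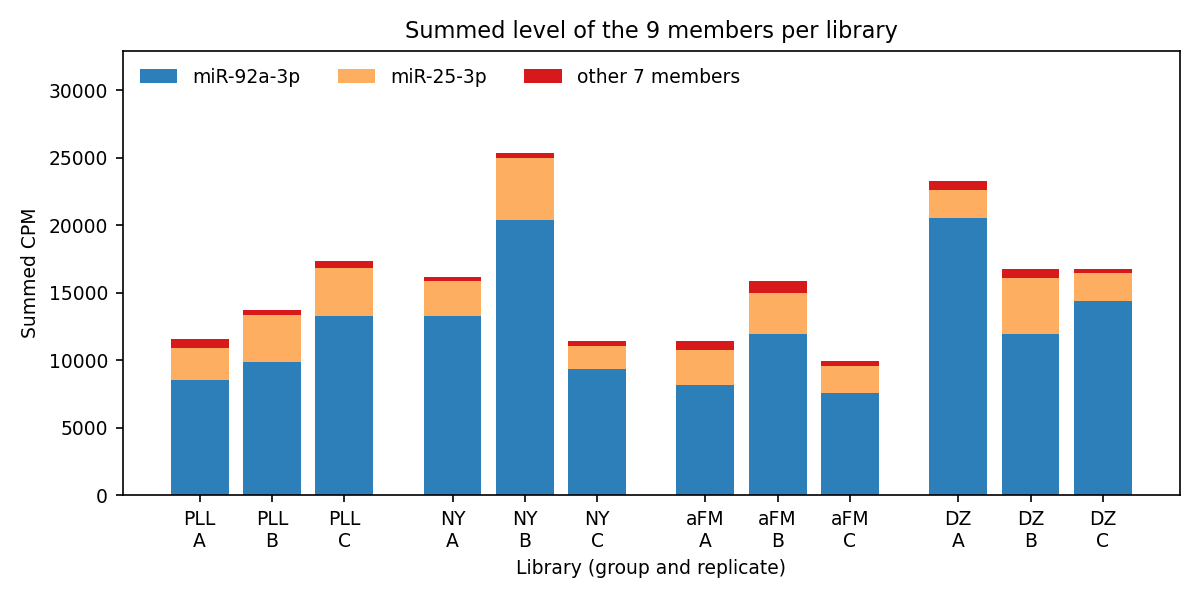
Summed CPM of the 9 members in each library, stacked by miR-92a-3p, miR-25-3p and the other 7 members. The aFM bars (9908 to 15846 CPM) all end below the DZ bars (16724 to 23301 CPM), while NY spans 11419 to 25316 CPM.

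Of the 9 members, 2 had counts high enough to be tested, miR-92a-3p and miR-25-3p. The filter asks for a level worth about 10 counts in at least 3 libraries, and the other 7 did not reach it. miR-92a-3p, which restrains angiogenesis in part through an integrin alpha subunit, had 8542, 9848 and 13241 CPM in PLL replicates A, B and C and 13285, 20377 and 9355 CPM in NY. It had 8165, 11967 and 7582 CPM in aFM and 20556, 11930 and 14405 CPM in DZ. Replicates A and C of aFM were below all DZ libraries, and aFM replicate B stood just above DZ replicate B, the lowest of its group. Group means were 10544 ± 2425 CPM in PLL, 14339 ± 5586 in NY, 9238 ± 2381 in aFM and 15630 ± 4442 in DZ (SD, n = 3). By mean, aFM was lowest, followed by PLL, NY and DZ, and the libraries of every pair of groups overlapped. Libraries did not overlap for 15.9% of tested miRNAs in NY against DZ, 21.2% in PLL against DZ, 43.9% in NY against aFM, 38.6% in PLL against aFM and 31.8% in PLL against NY.

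In edgeR's quasi-likelihood test the log2 fold change of miR-92a-3p in aFM against DZ was -0.75 ± 0.33 (SE), with a 95% interval of -1.47 to -0.033. Its p was 0.0417 before adjustment and 0.14 after Benjamini-Hochberg adjustment over the 132 miRNAs, so it did not pass. For PLL against DZ the value was -0.56 ± 0.33 (adjusted p = 0.263 in edgeR). For NY against DZ it was -0.12 ± 0.33 (adjusted p = 0.984 in edgeR). Between the remaining groups it was 0.63 ± 0.33 for NY against aFM, 0.19 ± 0.33 for PLL against aFM and -0.44 ± 0.33 for PLL against NY, with edgeR adjusted p of 0.233, 0.71 and 0.425. The joint test of the 4 groups gave adjusted p = 0.212 in edgeR. The 3 comparisons against DZ share the DZ libraries and are not independent of each other.

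miR-25-3p, which targets the pro-apoptotic protein Bim and the cell cycle inhibitor p57 in human cells, was the other member tested. It had 2356, 3508 and 3588 CPM in PLL and 2557, 4628 and 1731 CPM in NY. It had 2609, 3001 and 1994 CPM in aFM and 2013, 4167 and 2052 CPM in DZ. All groups overlapped, and replicate B was the highest library in NY, in aFM and in DZ. Group means were 3151 ± 689 CPM in PLL, 2972 ± 1492 in NY, 2535 ± 508 in aFM and 2744 ± 1232 in DZ (SD, n = 3), with no neighbours in that range apart beyond their spread. Log2 fold changes ran from -0.10 ± 0.41 (SE) in aFM against DZ to 0.31 ± 0.40 in PLL against aFM, with edgeR adjusted p from 0.595 to 0.984. The 6 intervals reached from -0.99 to 1.19, and differences within them were not detectable with these libraries. The joint test gave adjusted p = 0.892 in edgeR.

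Of the 2 tested members, 0 passed in any of the 6 comparisons or in the joint test. Over all 132 tested miRNAs, the share that passed was 18.9% in aFM against DZ, 0.758% in NY against DZ, 3.79% in PLL against DZ, 3.79% in NY against aFM, 9.09% in PLL against aFM, 6.82% in PLL against NY and 12.1% in the joint test. A count of 0 of 2 cannot be told apart from any of these shares. At an unadjusted p under 0.05 the count was 1 of 2, miR-92a-3p, in aFM against DZ and 0 elsewhere. The share of all tested miRNAs at that level was 30.3% in aFM against DZ, 14.4% in NY against DZ, 28% in PLL against DZ, 27.3% in NY against aFM, 32.6% in PLL against aFM, 21.2% in PLL against NY and 41.7% in the joint test. DESeq2 called 0 members in any comparison. The median log2 fold change of all tested miRNAs was -0.14 in aFM against DZ and 0.31 in PLL against aFM, beside the -0.75 and 0.19 of miR-92a-3p. When predicted loci entered the fit, both members passed in PLL against aFM, at 2.03 for miR-92a-3p (edgeR adjusted p = 0.0161) and 2.13 for miR-25-3p (edgeR adjusted p = 0.0275). In that fit 59.6% of the 141 annotated miRNAs tested and 36.5% of all 853 rows passed in PLL against aFM. The median annotated miRNA stood at 2.13, so neither member stood above it.

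**Figure D3:**
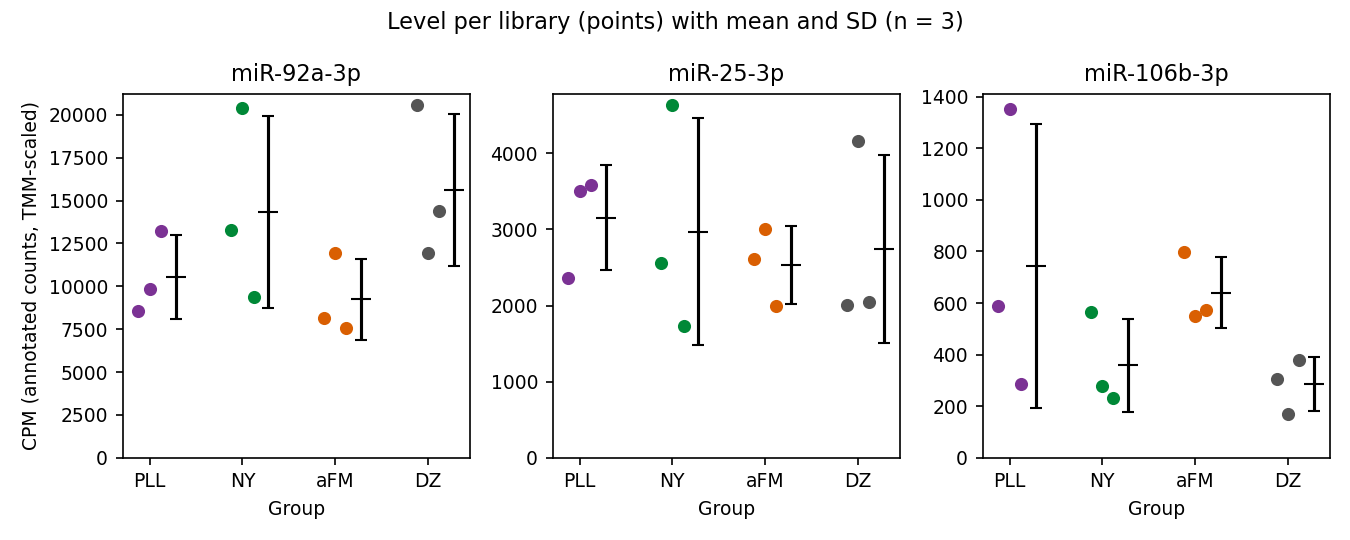
CPM per library of miR-92a-3p, miR-25-3p and miR-106b-3p, the other arm of a member's hairpin, with the mean and SD of each group (n = 3) to the right of its points. miR-106b-3p separates aFM (549 to 799.6 CPM) from DZ (171 to 380.1 CPM), as 34.1% of the 132 tested miRNAs did in either direction. All other pairs of groups overlap in each panel.

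The balance between the leaders shifted between libraries. miR-92a-3p outnumbered miR-25-3p 3.62, 2.81 and 3.69 times in PLL replicates A, B and C and 5.19, 4.40 and 5.40 times in NY. The ratio was 3.13, 3.99 and 3.80 in aFM and 10.2, 2.86 and 7.02 in DZ. NY libraries were all above those of PLL and aFM, and PLL and aFM overlapped. DZ libraries overlapped those of every other group, with DZ replicate B low and replicates A and C above all other libraries. The ratio uses counts of the same library and does not depend on the scaling. It is a description, without a test, and the share of miRNA pairs with such a gap was not computed. For single miRNAs, libraries did not overlap for 31.8% of the 132 tested in PLL against NY and 43.9% in NY against aFM.

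The 4 other members with the miR-17 seed were near the detection limit. miR-20a-5p, which like miR-17-5p represses E2F1, the BMP receptor BMPR2 and the cell cycle inhibitor p21 in human cells, had counts of 7, 1 and 8 in PLL, 3, 0 and 8 in NY, 3, 3 and 5 in aFM and 4, 6 and 2 in DZ. miR-17-5p had counts of 0, 5 and 2 in PLL, 5, 2 and 0 in NY, 4, 8 and 2 in aFM and 2, 3 and 0 in DZ. miR-93-5p had 13, 5 and 6 in PLL, 0, 7 and 2 in NY, 2, 7 and 2 in aFM and 0, 2 and 5 in DZ. For each of these 3 miRNAs every pair of groups overlapped or met in counts.

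miR-106b-5p had 2, 1 and 1 counts in PLL, 0 in each NY library, 3, 3 and 0 in aFM and 6, 1 and 0 in DZ. The 0 counts in NY allow up to 93.2 to 99.9 CPM in any single library, above its mean in PLL (34.0 CPM) and in aFM (78.7 CPM). The 3 NY libraries pooled would give a lower limit, which was not computed. Limits of single libraries therefore do not settle whether NY lay below those groups. The DZ mean of 141 CPM rested on replicate A. Summed over the family, the AAAGUGC members stood at 446 ± 128 CPM in PLL, 293 ± 35.5 in NY, 515 ± 248 in aFM and 561 ± 256 in DZ (SD, n = 3).

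miR-18a-5p and the miR-19 pair were rarer. miR-18a-5p had 4 counts, of which 2 were in PLL replicate A and 1 each in aFM replicates A and C. miR-19a-3p had 7 counts in 3 libraries and miR-19b-3p 10 counts in 5. In DZ all 3 miRNAs were at 0, which allows up to 114 to 183 CPM per library, above the level of the pair in every other library (at most 113 CPM). The DZ libraries pooled would give a lower limit, which was not computed. Whether DZ lay below the other groups is therefore not settled by these limits. With no filter on low counts all 9 members could be fitted among 501 miRNAs, and 0 passed in any comparison, with edgeR adjusted p of 0.383 or more. The share of the 501 that passed was 2.99% in aFM against DZ, 1.4% in NY against DZ, 3.39% in PLL against DZ, 2.2% in NY against aFM, 2.99% in PLL against aFM, 3.19% in PLL against NY and 7.58% in the joint test. At an unadjusted p under 0.05 in that fit the members were miR-92a-3p in aFM against DZ and miR-106b-5p in NY against DZ and NY against aFM. The share of the 501 at that level was not computed, so these members cannot be set against all miRNAs.

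Each hairpin can also release the RNA of its other arm. Of 9 such arms, 5 had counts, 264 in all, and 193 of these were miR-106b-3p. Its hairpin (chr5:138165737-138165818, minus strand, GRCm38.p6) is shown beside that of miR-17 (chr14:115043671-115043754, plus strand), whose arms were nearest in count. Capitals mark the 5p arm and then the 3p arm:
Mir106b: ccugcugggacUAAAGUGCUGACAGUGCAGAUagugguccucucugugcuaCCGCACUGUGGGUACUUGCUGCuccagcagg
Mir17: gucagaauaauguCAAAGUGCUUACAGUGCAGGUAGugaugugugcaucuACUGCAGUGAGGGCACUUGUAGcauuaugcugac

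The 3p arm took 193 of 210 counts of Mir106b, or 91.9% (exact 95% binomial interval 87.4% to 95.2%), and exceeded the 5p arm in 11 of 12 libraries. By group its share was 95.7% (89.4% to 98.8%) in PLL, 100% (89.4% to 100%) in NY, 89.8% (79.2% to 96.2%) in aFM and 72.0% (50.6% to 87.9%) in DZ. The lower share in DZ rested on replicate A, with 6 counts of the 5p arm and 5 of the 3p arm. Replicate B had 1 and 3, and replicate C 0 and 10. In the same transcript miR-93 showed the opposite balance, with 51 counts of the 5p arm and 5 of the 3p arm. miR-25 was 97.5% 3p. For Mir17 the arms were nearer, with 33 counts of miR-17-5p and 25 of miR-17-3p, of which 20 lay in aFM, 13 of them in replicate A. miR-20a-3p and miR-92a-1-5p had 0 counts beside 50 of miR-20a-5p and 4221 of miR-92a-3p, the second of which Mir92-2 may also supply. A comparison of arms compares different sequences, whose capture in the library can differ, and that part was not tested.

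**Figure D4:**
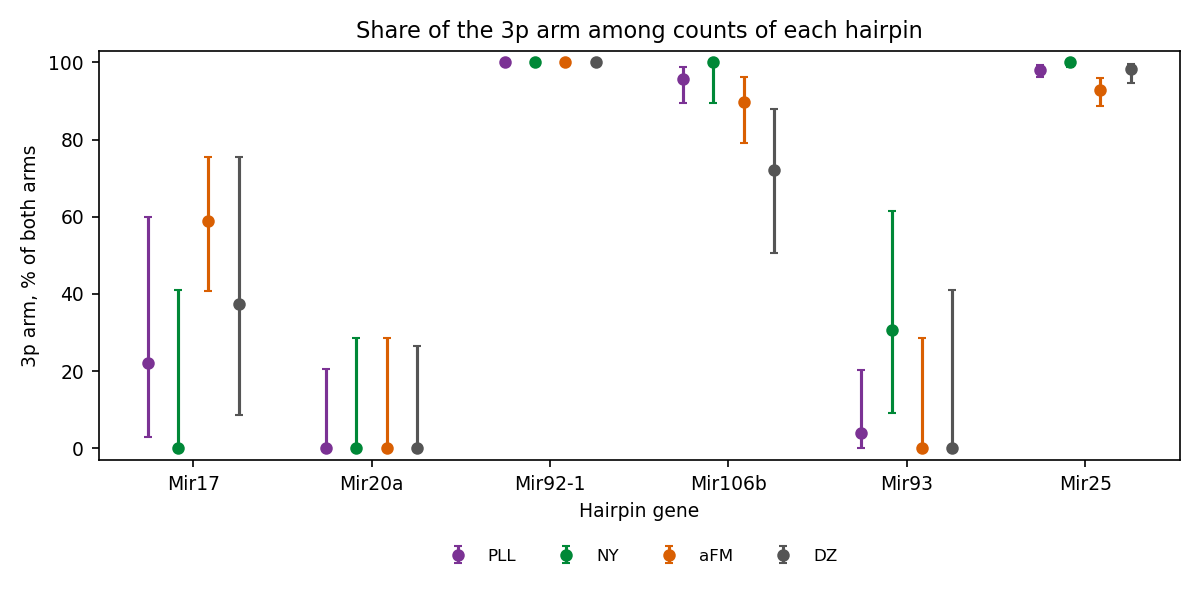
Share of the 3p arm among the counts of both arms for 6 hairpin genes, pooled over the 3 libraries of each group, with exact 95% binomial intervals that cover counting error only; Mir92-1 is drawn with all miR-92a-3p counts, which may also come from Mir92-2. Mir106b, Mir92-1 and Mir25 lie at 72.0% or above in every group, Mir20a and Mir93 at 30.8% or below, and Mir17 from 0% in NY to 58.8% in aFM. The 72.0% of Mir106b in DZ rests on replicate A. For Mir17 the intervals of NY (0% to 41.0%) and aFM (40.7% to 75.4%) overlap.

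miR-106b-3p was the only other arm tested. It had 589, 1353 and 286 CPM in PLL, 565, 279.6 and 233 CPM in NY, 799.6, 549 and 574 CPM in aFM and 305, 171 and 380.1 CPM in DZ. All aFM libraries were above all DZ libraries, whereas PLL replicate C was below DZ replicates A and C. In aFM against DZ, 34.1% of the 132 tested miRNAs had non-overlapping libraries in either direction. The log2 fold change was 1.13 ± 0.62 (SE) in aFM against DZ (edgeR adjusted p = 0.271) and 1.35 ± 0.61 in PLL against DZ (edgeR adjusted p = 0.17). Without PLL replicate B, the value for PLL against DZ was 0.30. In NY against DZ it was 0.30 ± 0.63, and among PLL, NY and aFM no comparison passed (edgeR adjusted p from 0.308 to 0.792). The 95% interval was -0.22 to 2.47 in aFM against DZ and 0.033 to 2.67 in PLL against DZ, where p before adjustment was 0.0454 in edgeR.

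Among the sparse arms, miR-17-3p had 1, 0 and 1 counts in PLL replicates A, B and C, 0 in each NY library, 13, 4 and 3 in aFM and 2, 0 and 1 in DZ. miR-25-5p had 0, 7 and 0 counts in PLL, 0 in each NY library, 4, 9 and 3 in aFM and 3, 0 and 0 in DZ. Both were present in every aFM library, and of the other groups neither was present in every library. In the fit without a filter, NY against aFM gave edgeR adjusted p = 0.0736 for miR-17-3p and 0.0993 for miR-25-5p, which did not pass. miR-18a-3p had 15 counts in 4 libraries.

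Of 10 mature miRNAs of the X-linked miR-106a-363 cluster, 4 had counts and 0 were tested. miR-363-3p, which has the miR-92 seed, had 86 of their 89 counts, with 6, 12 and 10 in PLL, 9, 9 and 6 in NY, 1, 11 and 0 in aFM and 11, 4 and 7 in DZ. miR-106a-5p, miR-20b-5p and miR-18b-3p had 1 count each. Of 3 further miRNAs with that seed, miR-92b-3p had 48 counts, miR-32-5p 17 and miR-367-3p, known from pluripotent cells, 0. miR-92b-3p, which differs from miR-92a-3p by U10C and G21C over 21 bases, had 9, 2 and 6 counts in PLL, 3, 1 and 2 in NY, 8, 7 and 6 in aFM and 0, 2 and 2 in DZ. Its aFM libraries were above those of DZ and of NY in counts. In the fit without a filter it passed in neither comparison (edgeR adjusted p = 0.708 in aFM against DZ and 0.567 in NY against aFM). Of the 132 tested miRNAs, which did not include it, 34.1% had non-overlapping libraries in aFM against DZ and 43.9% in NY against aFM.

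The tested miRNAs outside these lists whose level most resembled the member sum were sought among 129 candidates, by Pearson correlation of log2 CPM over the 12 libraries. They were miR-484 (r = 0.808), miR-486a-5p and its identically counted copy miR-486b-5p (r = 0.797), miR-142a-5p (r = 0.780) and miR-451a (r = 0.752). miR-486 and miR-451a are erythroid and miR-142a-5p is haematopoietic. All 12 points share library and depth with the sum, and no test was made of the likeness. With miR-92a-3p alone their r was 0.695 to 0.798, and with miR-25-3p alone 0.335 to 0.528. They were picked by likeness to a sum made up mostly of miR-92a-3p, so this order was largely set by the selection. miR-486a-5p averaged 37942 CPM in PLL, 66616 in NY, 36512 in aFM and 77214 in DZ.

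**Figure D5:**
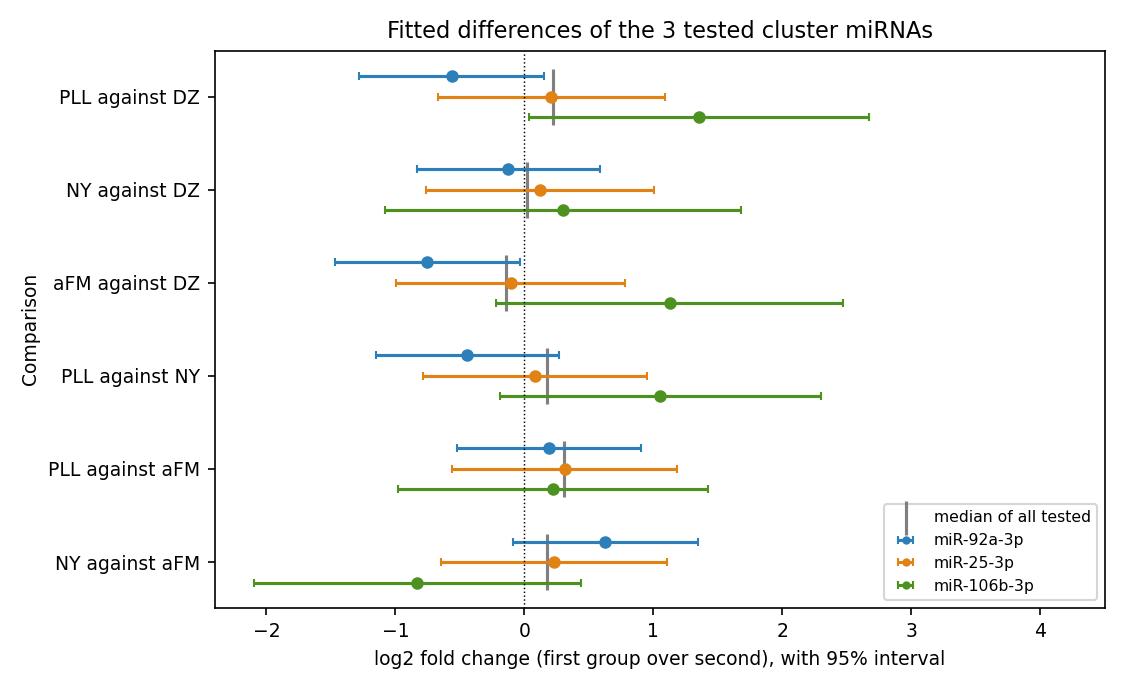
Log2 fold changes with 95% intervals from the edgeR fit for miR-92a-3p, miR-25-3p and miR-106b-3p in 6 comparisons, with the median of the 132 tested miRNAs as a grey bar. The intervals of miR-25-3p all include 0, as do those of miR-92a-3p except in aFM against DZ (-1.47 to -0.033) and those of miR-106b-3p except in PLL against DZ (0.033 to 2.67); 0 of these values passed after adjustment.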

How the data were processed

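The table held whole-number counts for 3509 rows in 12 libraries, deposited by the authors without normalization, judging by the values. FastQC, STAR, StringTie, DESeq2 and the build mm39 are listed per the submitters' processing notes, without versions or roles; for the miRNA caller the sources used here give no name. The extraction text in the labels describes messenger RNA libraries, the design text a small RNA kit. Predicted loci (1531 rows, 39.3% to 89.7% of counts per library) name no miRNA, so neither library sizes nor tests include them. Rows with mouse miRNA names (1978) were fitted with edgeR 4.0.16 in R 4.3.3: filterByExpr (minimum count 10, minimum total 15) kept 132, TMM scaled them, and a single quasi-likelihood fit covered all 12 libraries, with group as its only factor. P-values are two-sided and Benjamini-Hochberg adjusted over these 132, with a threshold of 0.05. The SE is the fold change divided by the square root of F. The members, lists and tests were chosen with earlier results of these data known. All members were named, together with the listed relatives that had counts and the 5 most similar miRNAs. Alternatives included DESeq2 1.42.0. Scripts were tested on simulated data. Chi-square tests of counts found that every pair of replicates differed beyond sampling noise. The largest values were those of PLL replicate A against B (12715) and C (10942), beside 840 between B and C. The TMM factor of PLL replicate A was 0.730, beside 1.13 and 1.10 in B and C. Deviations of same-letter libraries were positively correlated for each letter between NY and DZ (0.13 to 0.34) and between aFM and DZ (0.062 to 0.23). For the other pairs of groups they were not, and no label states a pairing. Sequences and coordinates are from RefSeq (GRCm38.p6), host exons from GENCODE M21; no coordinates come from the count table.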

Additional observations from a re-analysis of the deposited data

How the results depend on the processing

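The count of members that passed stayed at 0 in all 6 comparisons and the joint test under RLE, upper quartile or no scaling factors, without a filter, with identical rows merged, with DESeq2, in fits of only the compared groups, and without each library in turn (range 0 to 0). With predicted loci in the fit it was 2 in PLL against aFM and 0 elsewhere. With the replicate block it was 0 throughout. The log2 fold change of miR-92a-3p was then -0.78 in aFM against DZ and -0.17 in NY against DZ. In both comparisons the same-letter correlations were positive for each letter. In the fit with predicted loci miR-92a-3p changed sign in NY against DZ (0.26), PLL against DZ (0.97) and PLL against NY (0.72), where the median annotated miRNA stood at 0.21, 1.73 and 1.49; miR-106b-3p passed there in PLL against DZ, aFM and NY. Upper quartile factors gave miR-25-3p -0.11 in NY against DZ, and fitting only the 2 groups gave it -0.14 in PLL against NY; the cause was not tested.

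With single libraries left out, miR-92a-3p ran from -0.45 to 0.13 in NY against DZ and from -0.17 to 0.32 in PLL against aFM, and stayed negative in aFM against DZ (-1.05 to -0.49). miR-25-3p ran from -0.31 to 0.35 in aFM against DZ, -0.34 to 0.55 in NY against DZ, -0.11 to 0.61 in PLL against DZ, -0.24 to 0.48 in NY against aFM and -0.23 to 0.54 in PLL against NY. miR-106b-3p ran from -0.16 to 0.55 in NY against DZ and -0.74 to 0.46 in PLL against aFM. Scaled to all counts rather than annotated ones, the summed CPM was 5874 in PLL, 4295 in NY, 1998 in aFM and 3136 in DZ. The number of all miRNAs that passed moved more. It was 25 in aFM against DZ (5 to 28 over the alternatives), 1 in NY against DZ (1 to 7), 5 in PLL against DZ (1 to 58), 5 in NY against aFM (1 to 29), 12 in PLL against aFM (4 to 84), 9 in PLL against NY (5 to 34) and 16 in the joint test (9 to 79). At this depth 7 of 9 members had at most 13 counts in any library.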
